A study of Mus musculus with 8 samples.

Results

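The genes for the protein parts of the cytosolic ribosome were examined for open chromatin in mouse embryonic stem cells. They were chosen by symbol from the protein-coding genes of the RefSeq table of GRCm38.p6: autosomal genes named Rpl, Rps or Rplp with a number, with Rpsa. The rule found 80 genes among 20558 autosomal protein-coding genes. Of these, 7 are like-copies, paralogs named for the gene they resemble (5 symbols end in l, and Rpl22l1 and Rpl7l1 end in l1), and they are described apart from the other 73. Another 4 genes that match by symbol, Rpl10, Rpl36a, Rpl39 and Rps4x, lie on X and were left outside the list.

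ATAC-seq, which uses the Tn5 transposase to cut and tag exposed DNA, was carried out on 8 samples of the cell line RHKI. RHKI derives from the embryonic stem cell line E14Tg2a and carries an HA-Rnaseh1 knock-in in every sample. RNase H1 removes the RNA of RNA-DNA hybrids. The 4 control samples had no doxycycline and the 4 Dox samples had 500 ng/ml for 48 h, all in 2i/LIF medium with serum, and the labels do not say whether the line is 1 clone or whether the replicates were separate cultures. The study's contrast is Dox against control, but the peaks analysed here came as 1 list of 76996 positions with no height, count or sample. No value below therefore belongs to a sample or a group, no replicate error can be given, Dox and control were not compared, and the depth is unknown. Absence from the list is therefore no measure of closed chromatin.

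Each ribosome joins a small subunit, which reads the mRNA, to a large subunit, which forms the peptide bonds. Proteins named Rps belong to the small subunit, proteins named Rpl to the large one, and Rplp0, Rplp1 and Rplp2 form the stalk that recruits translation factors. Nearly every growing cell needs all of them, and their genes are short and strongly transcribed. Their mRNAs begin with a run of pyrimidines, the TOP motif, through which growth signals control translation.

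Almost all ribosomal protein genes carried a peak at an end. A gene end is either outer bound of the gene in the table, and a peak was counted when it overlapped the window of 1 kb on either side. Of the 73 genes, 69 had such a peak (94.5%, exact 95% binomial interval 86.6 to 98.5%, which covers only the counting of genes), beside 63.4% of all autosomal protein-coding genes. The small subunit had 29 of 30 genes, the large subunit 37 of 40 and the stalk 3 of 3. The genes without were Rps2, Rpl17, Rpl19 and Rpl30. Ribosomal protein genes are short, with a median length of 3.18 kb against 17.6 kb for all genes, so the windows cover more of each gene. Among genes of up to 5 kb the shares were 95.1% of 61 ribosomal protein genes and 38.3% of 4510 coding genes, a class of short genes that also holds large sensory and immune families. The 78 autosomal genes for the mitochondrial ribosome (Mrpl and Mrps symbols) had a share of 96.2%, so a high share was also found for another ribosome.

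**Figure D1:**
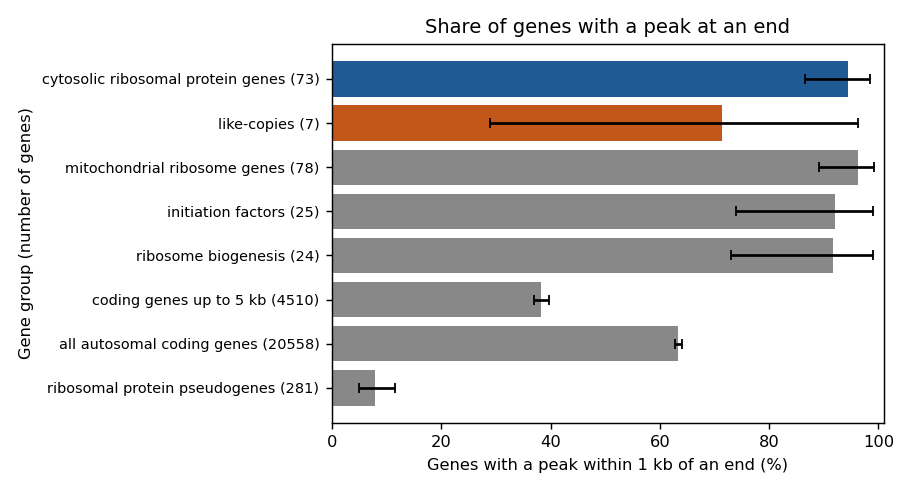
Percent of genes with a peak within 1 kb of an end, for 8 gene groups with the number of genes in brackets; bars start at 0 and error bars are exact 95% binomial intervals over genes. The 73 cytosolic ribosomal protein genes (94.5%) lie level with mitochondrial ribosome genes (96.2%) and above all autosomal coding genes (63.4%), while ribosomal protein pseudogenes reach 7.83%.

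Where RefSeq gave the start of transcription, every ribosomal protein gene had its peak there. The promoter table held starts with strand for 53 of the 73 genes, and all 53 had a peak within 1 kb of a start, beside 63.8% of the 16457 autosomal protein-coding genes with an annotated start. In the narrower window from 250 bases before the start to 50 after it, 51 of the 53 had a peak, all but Rpl22 and Rps26, beside 55.3% of all genes. The 69 mitochondrial ribosome genes with an annotated start were alike, with 98.6% within 1 kb and 95.7% in the narrower window. The other 20 genes, among them Rpl3, Rpl17, Rpl30, Rplp1, Rps14 and Rps27a, were measured only at their outer bounds. Of these 20, 18 had a peak at an end, 12 at 1 end only and 6 at both.

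The peaks lay just before the start. In the 53 genes the centre of the nearest peak was a median of 46 bp before the start, with quartiles of -117 and -5 bp (negative values lie before the start). It lay before the start in 43 genes (81.1%), beside 66.5% of all genes with a peak at a start, whose median was 36 bp before it. For mitochondrial ribosome genes the share was 75% and the median 36.5 bp before the start. Where a gene had several annotated starts, the one nearest to a peak was used, for all genes alike. Rps3, which encodes a protein at the mRNA entry site of the small subunit, and Rpl31 both had a centre 1 bp before the start. Rps6, the S6 kinase substrate of the small subunit, had its centre 19 bp before. The stalk genes Rplp0 and Rplp2 had theirs 80 bp and 23 bp before, and Rpsa, a small subunit protein also known as the laminin receptor, 122 bp before.

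**Figure D2:**
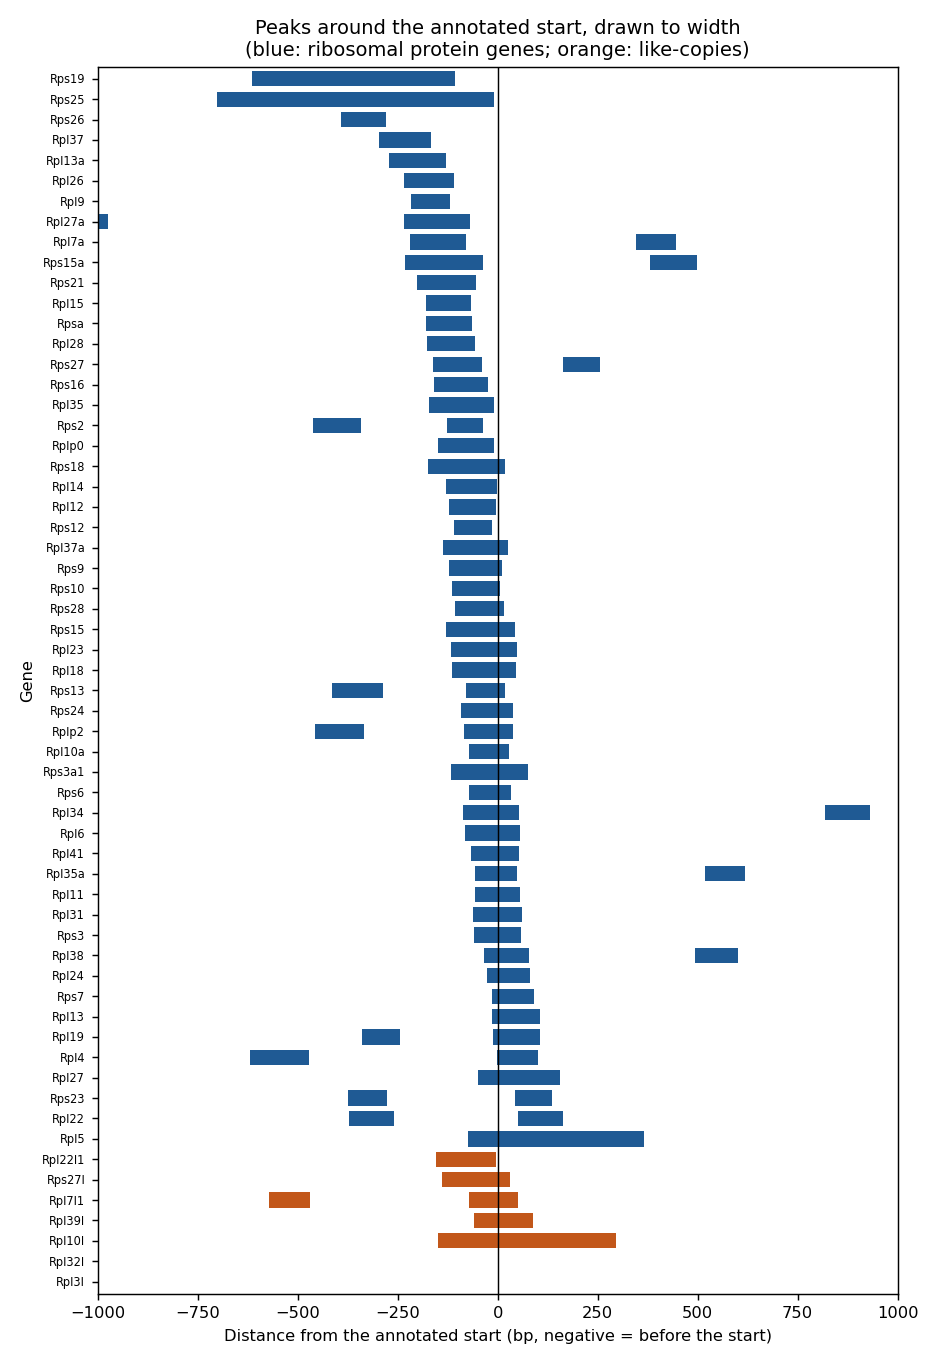
Peaks drawn to width as bars against distance from the annotated start in bp (negative before the start), 1 row for each of the 53 ribosomal protein genes (blue) and 7 like-copies (orange) with an annotated start, ordered by the centre of the nearest peak. The 53 blue rows all have a bar within 1 kb, most of them touching or just left of the line at 0, and the rows of Rpl32l and Rpl3l are empty.

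The row order runs from Rps19 and Rps25, with centres 361 bp and 356 bp before the start, to Rpl5, with its centre 145 bp after it. Rps19, a gene mutated in Diamond-Blackfan anaemia, and Rps25 both had wide peaks, of 506 bp and 692 bp. Rps26 (336 bp before), Rpl37 (232 bp) and Rpl13a (201 bp) had peaks of 112, 129 and 141 bp that ended before the start. Rpl5 encodes a protein that carries 5S rRNA into the large subunit together with the product of Rpl11. The centre at Rpl11 lay 1 bp before its start, in a peak of 111 bp.

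The letters of 8 promoters show what the peaks covered. Each runs 5′ to 3′ on the gene's strand from 150 bases before an annotated start to the first 20 transcribed bases (RefSeq, GRCm38.p6), and capitals mark bases inside a listed peak. Rps3 and Rplp0 have peaks of 119 and 141 bp at or just before the start, and Rps25 has the widest end peak of the 73 genes. Rpl19, Rps2 and Rps27l are shown for starts that lie inside the outer bounds, and Rpl3l and Rpl32l as copies with no listed peak at the start.
Rps3, chr7:99483690-99483859, minus strand: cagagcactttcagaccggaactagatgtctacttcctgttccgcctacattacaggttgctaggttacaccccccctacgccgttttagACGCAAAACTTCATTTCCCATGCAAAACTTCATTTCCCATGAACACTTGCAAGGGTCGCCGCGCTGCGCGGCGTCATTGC
Rplp0, chr5:115559317-115559486, plus strand: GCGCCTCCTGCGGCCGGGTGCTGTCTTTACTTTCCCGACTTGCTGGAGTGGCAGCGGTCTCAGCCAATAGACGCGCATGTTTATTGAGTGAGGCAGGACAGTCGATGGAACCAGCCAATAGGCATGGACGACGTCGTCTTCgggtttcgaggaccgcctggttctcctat
Rps25, chr9:44407564-44407733, plus strand: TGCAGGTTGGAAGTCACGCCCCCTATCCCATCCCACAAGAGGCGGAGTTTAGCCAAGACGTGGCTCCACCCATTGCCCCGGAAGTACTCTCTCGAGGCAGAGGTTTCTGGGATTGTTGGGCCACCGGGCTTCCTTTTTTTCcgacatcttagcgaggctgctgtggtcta
Rpl19, chr11:98026560-98026729, plus strand: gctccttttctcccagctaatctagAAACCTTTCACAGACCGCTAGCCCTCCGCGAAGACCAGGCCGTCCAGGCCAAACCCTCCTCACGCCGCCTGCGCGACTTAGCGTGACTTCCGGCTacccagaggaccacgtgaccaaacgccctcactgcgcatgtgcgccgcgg
Rps2, chr17:24719913-24720082, plus strand: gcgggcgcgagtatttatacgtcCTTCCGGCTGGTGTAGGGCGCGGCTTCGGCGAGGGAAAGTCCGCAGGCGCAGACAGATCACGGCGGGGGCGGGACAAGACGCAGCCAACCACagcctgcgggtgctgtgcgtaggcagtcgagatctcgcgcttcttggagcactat
Rps27l, chr9:66945936-66946105, plus strand: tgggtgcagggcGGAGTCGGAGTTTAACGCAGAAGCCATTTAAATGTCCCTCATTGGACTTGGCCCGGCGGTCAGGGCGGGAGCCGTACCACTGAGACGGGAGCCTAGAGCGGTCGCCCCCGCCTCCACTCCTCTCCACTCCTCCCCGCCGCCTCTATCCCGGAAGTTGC
Rpl3l, chr17:24727676-24727845, plus strand: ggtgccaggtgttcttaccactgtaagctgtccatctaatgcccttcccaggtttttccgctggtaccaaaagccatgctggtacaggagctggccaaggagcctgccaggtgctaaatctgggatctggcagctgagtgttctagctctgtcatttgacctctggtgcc
Rpl32l, chr10:20208289-20208458, plus strand: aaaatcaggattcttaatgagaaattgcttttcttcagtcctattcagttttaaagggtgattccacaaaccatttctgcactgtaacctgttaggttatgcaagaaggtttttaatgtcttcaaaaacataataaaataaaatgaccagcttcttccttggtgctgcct
At Rps3 the peak spanned the start, with 80 of the 170 printed bases in it. At Rplp0 and Rps25 it ended just before the start and held 141 of them each. At Rpl3l and Rpl32l it held 0.

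Of the 4 genes with no peak at an end, Rps2 and Rpl19 had peaks at starts inside their outer bounds. Rps2 (chr17:24718121-24721927), which lines the mRNA entry channel, has an annotated start 1942 bp inside, and its peaks of 92 and 120 bp were centred at -82 and -402 bp from that start. Rpl19 (chr11:98022003-98030493) has annotated starts 4707 and 4921 bp inside, with peaks centred 78 bp before the former and 46 bp after the latter. Rpl17 (chromosome 18), near the peptide exit tunnel, had its nearest peak edge 1446 bp from an end, in a peak of 130 bp inside the gene, and its start was not in the promoter table. Rpl30 (chr15:34440505-34443276) had no peak at an end or inside, and its nearest peak edge lay 10325 bp away. Rpl30 was thus the only 1 of the 73 with no peak inside the gene or within 1 kb of it.

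Starts inside the outer bounds also shaped other values. The start used lay inside the bound in 10 of the 53 genes, and over 700 bp inside in 5 of them (Rpl18, Rpl19, Rpl22, Rpl38 and Rps2). Rpl22 had a start 1290 bp inside and a peak centred 107 bp after it, whereas the peak nearest to an outer bound lay 933 bp inside the far end. Rpl38, known for its part in the translation of Hox mRNAs, had its start 762 bp inside with a peak centred 21 bp after it. At the limit of 1 kb, Rpl22 (880 bp from peak edge to end) and Rpl29 (522 bp) were the farthest inside, and Rpl19 (1069 bp) the nearest outside.

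Not all like-copies had a listed peak at the start. Of the 7, 5 carried a peak at an end (71.4%, with an exact 95% binomial interval of 29.0 to 96.3%), and 5 at an annotated start, with Rps27l in place of Rpl3l. The shares over all autosomal coding genes were near these, at 63.4% for an end and 63.8% for an annotated start. Rpl22l1, the paralog of Rpl22, had a peak of 151 bp centred 79 bp before its start, and Rpl7l1 a peak of 124 bp centred 11 bp before. Rpl39l, a copy of the X-linked Rpl39 known for its role in male germ cells, had a peak of 148 bp centred 14 bp after the start. Rps27l, a paralog of Rps27 known as a p53 target, had none at its outer bounds, but a peak of 170 bp lay 54 bp before an annotated start 1462 bp inside. Rpl10l, an intronless testis copy of X-linked Rpl10, had a peak of 447 bp centred 73 bp after the start (chromosome 12), and among the 73 genes only Rps18, Rps19 and Rps25 had a wider one at an end. Rpl3l, the form of Rpl3 used in heart and skeletal muscle, had no peak at either annotated start, and its only end peak, of 233 bp, lay 372 bp past its far end in the window of Msrb1. Rpl32l had no peak within 1 kb of its bounds, and the nearest edge lay 7604 bp away. Counts of 7 are too few to set the like-copies against their parents.

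The peaks were of ordinary width for this list, whose median over all peaks was 130 bp. For each gene the widest peak at an end was taken, and its median over the 69 genes with one was 135 bp (quartiles 121 and 171 bp), beside 147 bp for all 13034 autosomal genes with a peak and 139 bp for mitochondrial ribosome genes. A width over 200 bp occurred in 10 of the 69 (14.5%, beside 22.0% of all genes) and over 400 bp in 6 (8.7%, beside 11.2%). The medians were 133 bp in the small subunit, 138 bp in the large and 129 bp in the stalk. The peak nearest to an annotated start had a median width of 124 bp in the 53 genes and 138 bp in all genes. For the peak with its centre nearest to an end, the medians were close, at 133 bp in the 69 genes and 137 bp in all genes. How sequencing depth or the peak caller's settings bear on width was not tested.

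**Figure D3:**
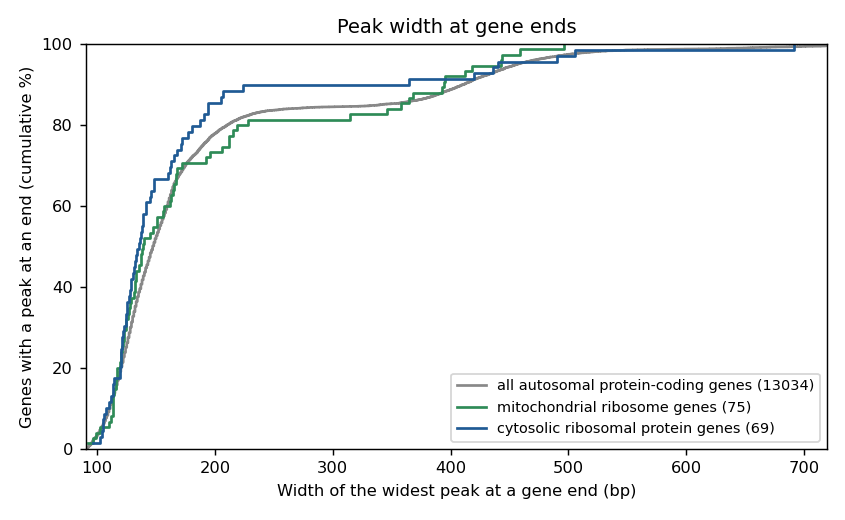
Cumulative percent of genes (y axis) whose widest peak at an end is at most the width on the x axis in bp, for the 69 cytosolic ribosomal protein genes, 75 mitochondrial ribosome genes and 13034 autosomal coding genes with a peak at an end. The ribosomal curve rises faster than that of all genes up to about its upper quartile of 171 bp, and 10 of the 69 genes lie over 200 bp.

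A few genes had wide peaks, not all of them at the start. The widest was at Rps25 (chromosome 9, 692 bp), in a stretch it shares with the neighbouring gene Trappc4. Next came Rps19 (506 bp), Rps18 (490 bp), Rpl5 (440 bp) and Rpl23 (436 bp). The peaks at Rps19, Rps25 and Rpl5 lay at the start. That of Rps18 lay at its far end beside B3galt4, while the peak at the start of Rps18 was 192 bp wide. That of Rpl23 lay at its far end beside 1700001P01Rik, with 164 bp at the start. Rps14, on chromosome 18, followed with 420 bp. The narrowest were Rpl9 (96 bp), Rpl10a (102 bp), Rps6 (104 bp), Rpl35a (105 bp) and Rps23 (105 bp).

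Measured from the outer bounds, without use of strand, the nearest peak centre lay a median of 63 bp from an end in the 69 genes (quartiles 30 and 129 bp), beside 96 bp in all genes. It lay within 100 bp in 44 of them (63.8%, beside 51.3%). It lay outside the gene in 55 of the 69 (79.7%), beside 52.8% of all genes and 58.7% of mitochondrial ribosome genes. The median distance was 88 bp in the small subunit, 55 bp in the large and 52 bp in the stalk, with overlapping quartiles of 38 to 122 bp and 22 to 165 bp for the 2 subunits. In the stalk, Rplp1 had a peak of 129 bp centred 52 bp outside its upper bound. Rps27a, which encodes ubiquitin fused to a small subunit protein, had a peak of 134 bp centred 232 bp outside, shared with Clhc1.

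Some genes had several peaks. The ends of the 69 genes held 109 peaks: 39 genes had 1 peak, 21 had 2, 8 had 3 and Rpl4 had 4. The share with over 1 peak was 41.1%, beside 24.9% of all genes, but among genes with any end peak it was 43.5%, near the 39.3% of all such genes. Among 63 genes long enough for their windows not to touch, 19 had peaks at both ends (30.2%, beside 9.96%, and 32.2% beside 14.5% among genes with any end peak), among them Rpl3, Rpl11, Rpl18, Rpl22 and Rpl23. Among the 45 of these 63 genes with an annotated start, 13 had a peak at the far end that was separate from the start (28.9%, beside 13.6% of all genes and 15.2% of those with a peak over a start). These far-end peaks lay in the window of another coding gene at 5 of the 13, namely Rpl4 (Snapc5), Rpl18 (Fam83e), Rpl23 (1700001P01Rik), Rps18 (B3galt4) and Rps25 (Ccdc84). At the other 8 they did not. Rps10 had 2 such peaks, centred 186 and 1005 bp from its far end, and Rpsa 1, centred 857 bp from it.

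Some ribosomal protein genes share an open region with a neighbour. An end peak lay in the window of another coding gene at 20 of the 73 genes (27.4%), beside 16.9% of all autosomal genes and 50.0% of mitochondrial ribosome genes. A gene without an end peak cannot share one, and among genes with one the share was 29.0%, near the 26.6% of all such genes. Rpl12 shared its peak with Lrsam1, Rpl15 with Nkiras1, Rpl35a with Iqcg, Rpl37 with Card6, and Rplp2 both of its peaks with Pidd1. Rps28 shared its peak of 124 bp with Ndufa7, a gene of respiratory complex I, Rpl9 its peak of 96 bp with Lias, which makes lipoic acid, and Rpl7a with Med22, a Mediator gene. Rpl36 shared peaks with Micos13 and with Lonp1. Ribosomal protein genes themselves were scattered over every autosome but chromosome 19, with 14 of the 73 on chromosome 7 and 7 on chromosome 11. These counts were not set against the number of all coding genes per chromosome, so they show no clustering. Rps2 lay 5.9 kb from the copy Rpl3l.

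Every ribosomal protein gene had at least 1 distal peak in reach. A peak was called distal when its centre was farther than 1 kb from the ends of all coding genes, and distal peaks were counted within 50 kb of each gene. The 73 genes had a median of 7 (quartiles 5 and 10, range 1 to 18), beside 5 (quartiles 2 and 8) for all autosomal genes and 6 for mitochondrial ribosome genes. No ribosomal protein gene had 0, beside 12.8% of all genes but only 1.28% of mitochondrial ribosome genes. A count of 10 or more was found at 21 (28.8%, beside 19.6% of all genes and 16.7% of mitochondrial ribosome genes). The ribosomal protein genes also lay among slightly more coding genes, with a median of 4 others with an end within 50 kb against 3 for all genes. The part of this in the count was not tested.

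The highest counts were at Rpl19 (18) and Rpl10a (17), and Rpl22 and Rps10 had 15 each. Distance was taken from outer bounds only, so peaks at a gene's own start deep inside its bounds were counted as distal. This holds for the 2 peaks at the starts of Rpl19, the 2 at the start of Rps2 and the peak nearest to the start of Rpl22. Rpl19 ranks above Rpl10a only with its own start peaks counted. The fewest were found at Rpl15, Rpl30, Rps23 and Rps27a, with 1 each. Rplp0, Rplp1 and Rplp2 had 9, 8 and 11, Rpsa 12 and Rps6 6. The medians were 6 in the small subunit (quartiles 4.25 and 10.75) and 7 in the large (quartiles 5 and 10), which overlap widely. Among like-copies the count ran from 2 at Rpl10l, Rpl22l1 and Rpl39l to 13 at Rpl32l, the copy without a peak of its own.

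**Figure D4:**
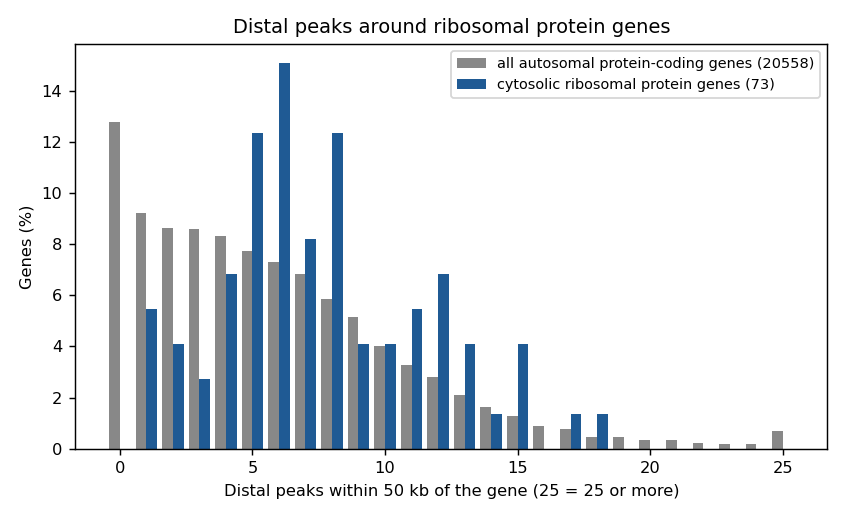
Percent of genes (y axis) by number of distal peaks within 50 kb (x axis, 25 stands for 25 or more), for the 73 cytosolic ribosomal protein genes (blue) and all 20558 autosomal coding genes (grey). No blue bar stands at 0, where 12.8% of all genes lie, and the blue counts run from 1 to 18.

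Many of the promoters had a pyrimidine run at or near the annotated start. In the first-listed RefSeq window of each gene, a run was counted when it began with C within 10 bases of the annotated start and held at least 6 C or T in all. It was found in 27 of 53 ribosomal protein promoters (50.9%), beside 19.7% of 16457 autosomal coding promoters and 21.7% of those for the mitochondrial ribosome. Among like-copies 4 of 7 had it, namely Rpl22l1, Rpl32l, Rpl39l and Rps27l. The start itself was C in 20 of the 53 (37.7%), beside 13.8% of all. The 27 runs in ribosomal protein promoters had a median length of 9 bases (range 6 to 20). Of the 27, 2 began exactly at the start, at Rps15a and Rpl38, and 15 began before it and reached it. The others began after the start or ended before it. The windows below show the 20 bases before the start and the first 20 transcribed bases with the run in capitals. Rpl27a, Rpl35 and Rpl15 have runs of 20, 18 and 17 bases, Rps6 of 10, Rps15a and Rpl38 of 8, and Rplp0 has none.
Rpl27a, chr7:109519175-109519214, plus strand: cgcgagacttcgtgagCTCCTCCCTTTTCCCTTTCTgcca
Rpl35, chr2:39005112-39005151, minus strand: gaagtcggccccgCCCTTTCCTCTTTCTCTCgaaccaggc
Rpl15, chr14:18270967-18271006, minus strand: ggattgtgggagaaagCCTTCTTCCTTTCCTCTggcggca
Rps6, chr4:86857348-86857387, minus strand: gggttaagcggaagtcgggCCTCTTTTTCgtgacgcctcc
Rps15a, chr7:118116128-118116167, minus strand: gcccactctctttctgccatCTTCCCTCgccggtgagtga
Rpl38, chr11:114668560-114668599, plus strand: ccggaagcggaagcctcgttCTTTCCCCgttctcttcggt
Rplp0, chr5:115559447-115559486, plus strand: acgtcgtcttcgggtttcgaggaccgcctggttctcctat
A missing run says only that these letters are not within these bases of the annotated start, which may be off by several bases.

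Of 5 motifs searched on both strands of the same windows, CCGGAAG, the core that ETS family factors recognise, was the one whose share differed most from that of all promoters. It occurred in 22 of the 53 (41.5%), beside 12.3% of all promoters and 36.2% of mitochondrial ribosome promoters, so it was not particular to the cytosolic ribosome. Of its 26 matches 17 lay wholly inside a listed peak (65.4%), where peaks covered 38.7% of the window bases. For GGGCGG the count was 24 of 45 (53.3%), for AAGATGGC 2 of 4, for CACGTG 2 of 5 and for TATAAA 0 of 4. The 38.7% is an average over whole windows, in which peaks were not spread evenly. Matches inside peaks were not counted over all promoters, so these shares mark no preference of ribosomal protein genes. The promoters of Rps10, Rps18 and Rpl38 show CCGGAAG in the 130 bases before the start, with each match in capitals on either strand.
Rpl38, chr11:114668450-114668579, plus strand: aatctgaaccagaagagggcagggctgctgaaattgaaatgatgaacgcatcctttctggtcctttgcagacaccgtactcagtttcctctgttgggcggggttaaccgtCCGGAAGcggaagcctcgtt
Rps10, chr17:27635245-27635374, minus strand: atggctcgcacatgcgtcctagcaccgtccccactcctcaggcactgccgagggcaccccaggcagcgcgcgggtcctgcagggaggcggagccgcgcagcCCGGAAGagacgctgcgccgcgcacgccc
Rps18, chr17:33955666-33955795, minus strand: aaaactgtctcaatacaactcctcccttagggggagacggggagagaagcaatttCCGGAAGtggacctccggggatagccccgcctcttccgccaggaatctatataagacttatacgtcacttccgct
The remaining motifs occurred at shares nearer to those of all promoters. GGGCGG, the GC box, was found in 31 promoters (58.5%, beside 47.3%) and CACGTG, the E-box, in 5 (9.43%, beside 7.96%). AAGATGGC, bound by YY1, was found in 4 (7.55%, beside 3.23%), at Rpl13a, Rpl35a, Rps15a and Rps27. Its share was higher in mitochondrial ribosome promoters, at 17.4%. TATAAA was found in 3 (5.66%, beside 13.5%), at Rplp0, Rps2 and Rps28. In the 53 windows, 0 matches of these motifs overlapped a match of another, and 4 (at Rpl18, Rpl35, Rps15a and Rps21) overlapped the pyrimidine run. A match is a run of letters and not a shown binding site. GC content had a median of 59.0% in the 53 windows and 56.7% in all.

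Ribosomal protein genes are frequent hosts of small nucleolar RNAs, which guide the modification of ribosomal RNA and are cut from introns. A snoRNA gene lay inside 28 of the 73 genes (38.4%), beside 1.71% of all autosomal coding genes. Rpl4 held 5, and Rpl7a and Rpl13a held 4 each. An end peak was present at 25 of the 28 host genes and at 44 of the other 45, and the median width was 138 bp against 132.5 bp. Hosts had a median of 8 distal peaks (quartiles 6 and 11) and the others 6 (quartiles 5 and 9).

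Processed copies of these genes rarely had a peak. The table lists 281 autosomal pseudogenes with a ribosomal protein symbol and the suffix ps, which are mostly copies of the mRNA without its promoter. Of these, 22 had a peak within 1 kb of an end (7.83%), beside 8.65% of all 9224 autosomal pseudogenes. Over 2 kb from coding gene ends the shares were 7.87% of 267 and 7.76% of all 8665. Rpl30-ps6 and Rpl30-ps7 were among the 22, with peak edges 603 and 182 bp from an end. How reads that match a gene and its copies alike were placed is not given in the sources used here.

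Other genes of translation were described from lists written by hand. Of 4 ribosome genes outside the symbol rule, among them Fau, Rack1 and Rpl36al, all had a peak at an end. Fau encodes a small subunit protein fused to a relative of ubiquitin, and its peak was 172 bp wide. Rack1, a signalling scaffold on the small subunit, had a peak of 699 bp, wider than any in the 73. The X-linked genes Rpl10, Rpl36a, Rpl39 and Rps4x all had a peak at the start, of 546, 166, 404 and 159 bp, with 3, 4, 1 and 4 distal peaks. A peak at an end was found for 5 of 5 elongation factor genes, 23 of 25 initiation factor genes (not Eif3d and Eif3f), 22 of 24 ribosome biogenesis genes (not Heatr1 and Ubtf) and 6 of 7 regulators of TOP mRNAs (not Larp1). These shares stand beside the same 63.4%.

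The labelled cell type was checked against markers. Of 8 naive embryonic stem cell genes 6 had a peak at an end, Dppa3 and Esrrb being without, and all 7 with an annotated start had a peak there. Primitive endoderm genes had 0 of 3, fibroblast genes 2 of 4, hepatocyte genes 2 of 3, beta cell genes 0 of 2 and muscle genes 3 of 3. At annotated starts, fibroblast genes had a peak in 1 of 2, and hepatocyte, muscle and beta cell genes in 0 of 2, 0 of 2 and 0 of 1. End counts did not set the naive genes apart from all genes or from muscle genes, and lists this short cannot identify a cell type. Peaks do not measure expression.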

How the data were processed

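The 8 ATAC-seq samples of RHKI cells, 4 control and 4 Dox, were grouped by sample title. The submitters' processing notes name GRCm38 and the tools deepTools 3.5.1, HOMER 4.11, Bowtie2 2.5.0, SAMtools 1.16.1, Trimmomatic 0.39 and Picard 2.10.9. The deposited list holds 3 columns of positions and no value per sample, so the planned comparison of Dox with control was not run and depth is unknown. Tool roles, the peak caller, its threshold and pooling of samples were not given in the sources used here.

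Gene bounds are those of RefSeq on GRCm38.p6, less 126 coding genes on scaffolds, patches or the mitochondrial genome. Strand, starts and sequences came from a RefSeq promoter table, with 250 bases before each start and 50 after. It matched 53 of the 73 genes and all 7 like-copies, and all 92 genes of the fixed lists matched the gene table. Peaks were compared by overlap of 1 base or by centre. Members and lists were chosen with earlier results of these data known, so no test over them was made: counts and medians stand beside those of all autosomal coding genes. Genes named are those without a peak, like-copies, extremes of width and distal count, genes with shared peaks or peaks at both ends, the stalk genes, Rpsa, Rps6 and Rps27a. Others, such as Rps3, Rps26, Rpl4, Rpl29, Rpl31, Rpl38, Rps14 and those with a motif, were picked once their values were known. Values of some single genes are not reported here. The measures were tested on placed peaks over 3627 genes and differed from a direct search in 0. Alternatives were other windows, reaches, peak subsets and gene sets. Python 3.11.15, NumPy 2.4.6, pandas 2.3.3, SciPy 1.17.1 and matplotlib 3.10.9 were used.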

Additional observations from a re-analysis of the deposited data

How the results depend on the processing

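The count of 69 ribosomal protein genes with a peak at an end ran from 67 with a 500 bp window to 72 with windows of 2 kb and 5 kb, and was 69 by peak centre. With only peaks wider than the list's median of 130 bp it fell to 39 of 73, from 94.5%. All autosomal coding genes fell from 63.4% to 42.7%. Both fell by the construction of that subset, but the ribosomal protein genes fell by more. Their lead over all genes was smaller there. The median width of 135 bp became 154 bp with a 5 kb window, beside 158 bp in all genes, since more peaks per gene enter. The median distal count of 7 became 3 within 20 kb (2 in all genes), 13 within 100 kb (9), 4 over 5 kb from every end (3), 3 outside coding genes (1) and 3 with wider peaks (2), each a different count of peaks. In each of these the value stayed above that of all genes for distal peaks and below it for width. The count of 53 at annotated starts was 51 in the promoter window and 53 with the first-listed start only, an alternative chosen after seeing the data. The comparison of Dox with control, with its replicate block and left-out replicates, was not run. No paired analysis was possible because the peak list holds no value per sample. A missing peak depends on a depth and threshold that are unknown.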
